A study of Mus musculus with 594 samples.

Results

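Tesc, Calb1 and S100a6 encode calcium-binding proteins of the EF-hand superfamily, and their transcript levels were followed in mouse alpha- and beta-cell tumour lines given small molecules that act on chromatin. They are 3 of the 11807 genes represented on the arrays and are read by 5 probe sets, sets of short probes read together as 1 value. The genes were selected on their log2 changes against the solvent DMSO in these same arrays, and on how those changes compare between the lines. The changes are therefore given as descriptions, without tests.

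The lines were beta-TC3, from an insulin-making tumour, and alpha-TC1, from a glucagon-making tumour. As background, both came from transgenic mice in which the insulin (beta-TC3) or glucagon (alpha-TC1) promoter drove a viral large T antigen, so each is 1 proliferating tumour line and not primary islet tissue. All cells grew in low-glucose DMEM with serum, and every group, controls included, received DMSO. Each compound group received 1 of 29 compounds at 1 dose for 1, 6 or 24 h, and the DMSO group of the same line and time was its control. RNA was hybridised to Affymetrix arrays, 295 from beta-TC3 and 299 from alpha-TC1.

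Of the compounds, 13 were histone deacetylase inhibitors of named chemical classes. The 8 hydroxamic acids were trichostatin A (0.22 µM), SAHA (1.3 µM), LBH-589 (0.015 µM), PXD101 (2.4 µM), ITF-2357 (10 µM), CRA-024781 (1.5 µM), pyroxamide (10 µM) and scriptaid (2 µM). The 3 ortho-amino anilides were CI-994 (10 µM), MS-275 (2.9 µM) and MGCD-0103 (1.1 µM), and the 2 cyclic tetrapeptides were apicidin (1.4 µM) and HC-toxin (0.12 µM). Chaetocin (1.7 µM) and BIX-01294 (10 µM) inhibit histone lysine methyltransferases, AMI-1 (10 µM) inhibits arginine methyltransferases, and 5-azadeoxycytidine and zebuarine (10 µM each) as well as RG-0108 (10 µM) were given against DNA methylation. The others carried code names only, namely BRD5298, BRD8451 and BRD9773 (10 µM each), BRD6929 (0.91 µM), BRD-A94377914 (3 µM), BRD-K17311666 (4.3 µM), BRD-K22912318 (5 µM), BRD-K62233722 (3.7 µM), BRD-K90919562 (4.1 µM) and BRD-K92415738 (3.2 µM).

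A compound group held 3 arrays, except for 5 groups of 2 and 1 group of 4 in alpha-TC1 at 24 h, and DMSO groups held 10 to 14 arrays. Array medians lay between 4.363 and 4.729 on the log2 intensity scale. The line labels were borne out by Pdx1, a beta cell transcription factor, whose lowest log2 level on any beta-TC3 array (6.47) was above its highest on any alpha-TC1 array (5.31). In DMSO at 24 h the insulin gene Ins2 averaged 13.20 in beta-TC3 and 4.31 in alpha-TC1, and the alpha cell factor gene Irx1 averaged 3.08 in beta-TC3 and 7.48 in alpha-TC1. Markers of other cells were also read in beta-TC3, with Sst, the somatostatin gene, at 12.71 and Gcg, the glucagon gene, at 8.79, while the beta cell glucose transporter gene Slc2a2 averaged 2.98, below the 25th percentile of all gene values (3.17). Ttr, listed here as an alpha cell marker, ran against the line labels, at 12.87 in beta-TC3 and 11.40 in alpha-TC1. Replicate arrays are not described as separate cultures, so p-values measure only the spread between these arrays, which may be technical. Precision is limited by how many arrays each group holds.

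As background, EF-hand proteins bind calcium in a helix-loop-helix fold and either buffer the ion or change shape and bind partner proteins. In endocrine cells a rise of cytosolic calcium triggers hormone secretion, and calcium-binding proteins shape or read that rise. Tesc encodes tescalcin, a calcineurin B homologous protein. Calb1 encodes calbindin-D28k, a fast cytosolic calcium buffer also known from neurons, kidney and islets. S100a6 encodes calcyclin, a dimeric S100 protein that binds annexins and the calcyclin-binding protein encoded by Cacybp.

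Tesc lies on mouse chromosome 5 (chr5:118027743-118061878, GRCm38.p6), Calb1 on chromosome 4 (chr4:15881264-15906709) and S100a6 on chromosome 3 (chr3:90612894-90614414). Promoter sequences of Tesc and S100a6, from 250 bases before to 50 bases after the annotated start, are shown because some of the compounds act on DNA methylation, which in mammals falls on the C of CG pairs. The Tesc window covers chr5:118027493-118027792 and the S100a6 window chr3:90612644-90612943, both on the plus strand of GRCm38.p6 and both from RefSeq, with every CG pair in capitals.
Tesc promoter: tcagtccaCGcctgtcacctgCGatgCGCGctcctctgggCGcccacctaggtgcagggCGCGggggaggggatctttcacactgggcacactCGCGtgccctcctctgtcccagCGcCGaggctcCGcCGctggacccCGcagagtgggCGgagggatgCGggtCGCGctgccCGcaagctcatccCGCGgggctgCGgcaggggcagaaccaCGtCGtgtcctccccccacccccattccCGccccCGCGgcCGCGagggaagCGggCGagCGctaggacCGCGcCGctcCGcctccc
S100a6 promoter: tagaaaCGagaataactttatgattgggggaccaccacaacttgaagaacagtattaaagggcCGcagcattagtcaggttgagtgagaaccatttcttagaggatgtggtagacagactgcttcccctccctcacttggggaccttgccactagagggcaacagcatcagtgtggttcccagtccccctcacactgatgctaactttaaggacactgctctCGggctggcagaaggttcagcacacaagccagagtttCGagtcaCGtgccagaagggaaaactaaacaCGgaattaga
The Tesc window held 36 CG pairs and was 74.7% G and C, and 6.2% of 32851 mouse promoter windows of this length held as many or more. The S100a6 window held 6 CG pairs and was 49.3% G and C, close to the median of 7 CG pairs over all windows. The letters GGGCGG, searched on both strands, occurred 2 times in the Tesc window and not in the S100a6 window, and 35.7% of all windows held them at least once. Methylation of these windows was not measured.

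In cells given only DMSO, Tesc differed far more between the lines than Calb1 or S100a6 did. At 24 h its log2 intensity averaged 5.10 ± 0.30 in beta-TC3 (SD, n = 12, range 4.69 to 5.54) and 11.61 ± 0.14 in alpha-TC1 (SD, n = 14, range 11.45 to 11.84). The groups did not overlap, and beta-TC3 was 91.2-fold lower (log2 difference -6.51 ± 0.12 SE, limma adjusted p = 1.03e-89). Of all genes, 30.7% were lower in beta-TC3 by the same test. The Tesc difference was -6.59 at 1 h and -6.63 at 6 h. In these bulk samples fewer cells with a transcript and less of it per cell cannot be told apart.

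S100a6 was also lower in beta-TC3, by much less. Its log2 intensity at 24 h averaged 2.99 ± 0.16 in beta-TC3 (SD, n = 12) and 3.45 ± 0.18 in alpha-TC1 (SD, n = 14), and the ranges of 2.69 to 3.27 and 3.15 to 3.94 overlapped. The log2 difference was -0.46 ± 0.084 SE (limma adjusted p = 7.62e-07). It was -0.24 at 1 h (limma adjusted p = 0.000994), where 29.3% of all genes were lower in beta-TC3, and -0.20 at 6 h (adjusted p = 0.00873), where 30.9% were. Calb1 averaged 3.02 ± 0.17 in beta-TC3 (SD, n = 12) and 2.80 ± 0.088 in alpha-TC1 (SD, n = 14) at 24 h, a log2 difference of 0.21 ± 0.12 SE that did not pass limma's test (adjusted p = 0.13). The Calb1 differences at 1 h (0.17, limma adjusted p = 0.0044) and 6 h (0.32, adjusted p = 0.00858) passed, where 30.3% and 28.4% of all genes were higher in beta-TC3. At 24 h 28.4% of all genes were. On the other Calb1 probe set the differences were 0.058 at 1 h and -0.045 at 6 h and did not pass, and in a fit of only the arrays compared the 24 h difference of 0.22 passed. In DMSO both Calb1 and S100a6 lay close to the 25th percentile of all gene values (3.17).

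None of the genes changed with time in DMSO by limma's test, in either line, with adjusted p-values from 0.457 to 0.997 and 0 of 12 unadjusted p-values under 0.05. In the same tests 6.52% of all genes were higher and 3.8% lower at 24 h than at 1 h in beta-TC3, and 3.37% were higher and 1.69% lower in alpha-TC1. At 6 h against 1 h the shares were 1.16% higher and 0.33% lower in beta-TC3, and 0.872% higher and 0.762% lower in alpha-TC1.

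Under the compounds, Tesc took opposite directions in the lines. At 24 h it was higher than in DMSO in beta-TC3 with the ortho-amino anilides, hydroxamic acids, cyclic tetrapeptides and most code-named compounds, and lower in alpha-TC1 with many of them. In beta-TC3 every array of 19 of the 29 compounds lay above every DMSO array and those of 1 compound, chaetocin, lay below. Over all genes and compounds 5.24% of such groups lay wholly above and 4.29% wholly below DMSO. In alpha-TC1 no compound's arrays lay wholly above DMSO and those of 13 compounds lay wholly below, where the shares over all genes were 6.87% above and 6.91% below. Since these contrasts served to choose the genes, nothing is read from the counts.

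The ortho-amino anilides gave the highest Tesc levels in beta-TC3. With CI-994 the log2 intensities were 9.59, 9.40 and 9.12, with MS-275 9.06, 8.82 and 8.79, and with MGCD-0103 8.78, 8.55 and 9.10, against a DMSO range of 4.69 to 5.54. All 9 arrays lay above all DMSO arrays, and the CI-994 arrays lay above those of MS-275. The log2 change was 4.47 ± 0.27 SE for CI-994, a 22.1-fold difference, 3.90 ± 0.27 for MGCD-0103 and 3.88 ± 0.26 for MS-275. The class mean was 4.08 ± 0.18 SE. The SE of a class mean or class difference holds the spread between arrays and not that between compounds. In alpha-TC1 the DMSO arrays, from 11.45 to 11.84, still read higher than any of these.

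Among the hydroxamic acids the Tesc change in beta-TC3 at 24 h ranged widely. Trichostatin A gave 8.22, 8.70 and 8.40 (log2 change 3.35 ± 0.26 SE), CRA-024781 gave 8.70, 8.88 and 7.81 (3.17 ± 0.27) and ITF-2357 gave 8.20, 8.27 and 8.24 (2.85 ± 0.29). LBH-589 followed with a change of 2.78, SAHA with 2.33, pyroxamide with 2.26 and PXD101 with 1.97. Scriptaid stood apart with 5.88, 5.23 and 5.26, which overlapped DMSO (change 0.55). The class mean was 2.41 ± 0.14 SE, and the hydroxamic acids lay below the anilides by 1.68 (log2 difference -1.68 ± 0.17 SE), although doses differed between compounds. At the shared dose of 10 µM the changes were 4.47 for the anilide CI-994, and 2.85 and 2.26 for the hydroxamic acids ITF-2357 and pyroxamide.

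With the cyclic tetrapeptides Tesc read 7.72, 7.20 and 6.80 (apicidin) and 7.03, 6.92 and 7.56 (HC-toxin), all above DMSO, with a class change of 2.21 ± 0.21 SE. Among the code-named compounds the changes were 2.39 for BRD5298, 2.16 for BRD-A94377914, 1.86 for BRD9773, 1.77 for BRD6929, 1.48 for BRD-K17311666, 1.15 for BRD8451 and 1.04 for BRD-K90919562. BRD-K92415738 read 4.22, 6.94 and 7.17, with 1 array below DMSO and 2 above, and its change of 1.10 was 2.19 without replicate 1 and 0.54 without replicate 3. Chaetocin gave 4.12, 4.63 and 4.37, all below DMSO, with a change of -0.53 ± 0.27 SE, and BIX-01294 gave 4.11, 4.61 and 4.84 with a change of -0.57. The remaining changes were 0.79 for BRD-K22912318, 0.50 for BRD-K62233722, 0.13 for RG-0108, -0.02 for AMI-1, -0.26 for 5-azadeoxycytidine and -0.41 for zebuarine, each with arrays inside the DMSO range. In the order of the 30 group means only 2 of 29 neighbouring pairs had separate ranges, CI-994 above MS-275 and ITF-2357 above LBH-589.

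**Figure D1:**
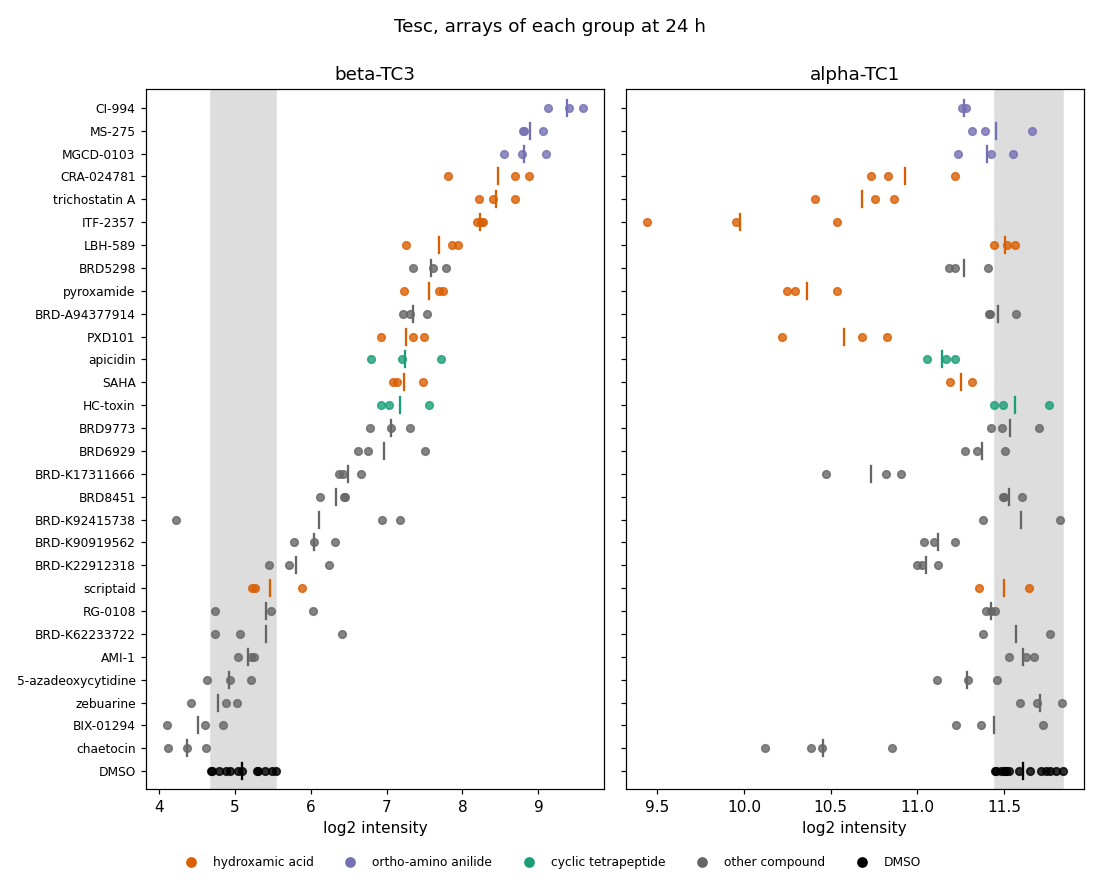
Log2 intensity of Tesc at 24 h on each array (points) with the group mean (bars), in beta-TC3 on the left and alpha-TC1 on the right, which have different horizontal scales, with compounds in the order of their beta-TC3 means above DMSO. The grey band is the DMSO range, and in beta-TC3 the 9 anilide arrays lie between 8.55 and 9.59 whereas in alpha-TC1 the ITF-2357 arrays reach down to 9.44.

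In alpha-TC1 at 24 h the lower Tesc levels came mainly with hydroxamic acids and chaetocin. ITF-2357 gave 9.44, 9.95 and 10.53, pyroxamide 10.25, 10.54 and 10.29, and PXD101 10.82, 10.68 and 10.22, against a DMSO range of 11.45 to 11.84. The changes were -1.69 ± 0.11 SE for ITF-2357, a 3.23-fold lower level, -1.32 for pyroxamide and -1.10 for PXD101. Trichostatin A (-0.94) and CRA-024781 (-0.75) followed, while SAHA (-0.31), scriptaid (-0.06) and LBH-589 (-0.05) lay closer to DMSO. Chaetocin arrays read 10.85, 10.45, 10.39 and 10.12, a change of -1.10 ± 0.11 SE, and BRD-K17311666 read 10.82, 10.47 and 10.91, a change of -0.88. The class mean was -0.78 ± 0.061 SE for the hydroxamic acids, -0.16 ± 0.085 for the anilides and -0.23 ± 0.089 for the cyclic tetrapeptides. Both CI-994 arrays (11.28 and 11.26) lay below the DMSO range, and MGCD-0103 (11.55, 11.24 and 11.43) and MS-275 (11.39, 11.31 and 11.66) each had 1 array inside it.

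After subtraction of the fitted batch effects, every beta-TC3 array lay above and every alpha-TC1 array below the DMSO mean for Tesc with 19 of the 29 compounds. Over all genes and compounds 4.05% held this pattern, and 3.67% its mirror image. Without that subtraction MS-275, BRD9773 and scriptaid each had an alpha-TC1 array (11.66, 11.70 and 11.64) above the DMSO mean of 11.61. Counting unadjusted arrays wholly outside the DMSO range, 11 compounds lay above in beta-TC3 and below in alpha-TC1. The share of all genes with that placement was not computed, and nothing is read from the count. The changes of all compounds in a line share the same DMSO arrays. The change in beta-TC3 minus that in alpha-TC1 was 4.12 ± 0.20 SE for the anilides, 3.19 ± 0.16 for the hydroxamic acids and 2.42 ± 0.22 for the cyclic tetrapeptides. With BIX-01294 and chaetocin all arrays of both lines lay below the DMSO mean on the same batch-adjusted values, a one-sided placement held by 24.1% of all genes and compounds. For 5-azadeoxycytidine the difference between the lines was 0.15 ± 0.29 SE.

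The Tesc probe set used above may cross-match related transcripts, by its suffix. The other Tesc probe set gave the same picture at lower readings. In beta-TC3 at 24 h it averaged 6.79 with anilides, 5.27 with hydroxamic acids and 3.30 in DMSO, and in alpha-TC1 it averaged 9.11 with anilides, 8.24 with hydroxamic acids and 9.41 in DMSO. By that probe set, after subtraction of batch effects, 20 of the 29 compounds had all beta-TC3 arrays above and all alpha-TC1 arrays below the DMSO mean. The chaetocin change in beta-TC3, -0.53 on the probe set used, was -0.03 on the other.

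Across times, Tesc in beta-TC3 was close to DMSO at 1 h, higher at 6 h and, by class average, higher again at 24 h. From 6 h to 24 h the average went from 6.06 to 9.02 with anilides and from 6.39 to 7.54 with hydroxamic acids. With cyclic tetrapeptides it went from 6.15 to 7.21. Hydroxamic acid arrays ran from 4.55 to 5.68 at 1 h, against 4.39 to 5.61 in DMSO. At 6 h ITF-2357 read 7.30, 6.75 and 7.40 and CI-994 read 6.39, 6.23 and 6.34, against a DMSO range of 4.55 to 5.38. The 6 h class changes lay close together, at 1.41 ± 0.083 SE for the hydroxamic acids, 1.29 ± 0.12 for the cyclic tetrapeptides and 1.26 ± 0.11 for the anilides. All 3 arrays of 16 compounds lay above DMSO at 6 h in beta-TC3, where 7.12% of all groups did, and of none at 1 h, where 0.177% lay above and 0.242% below. Scriptaid was among the compounds higher at 6 h, reading 5.72, 5.72 and 6.06 (change 1.03), and BRD-K92415738 read 6.40, 6.58 and 6.41 at 6 h (1.38). In alpha-TC1 no compound's Tesc arrays lay wholly outside the DMSO range at 6 h (shares over all genes 6.4% above and 5% below), and hydroxamic acid arrays averaged 11.53 against 11.58 in DMSO.

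**Figure D2:**
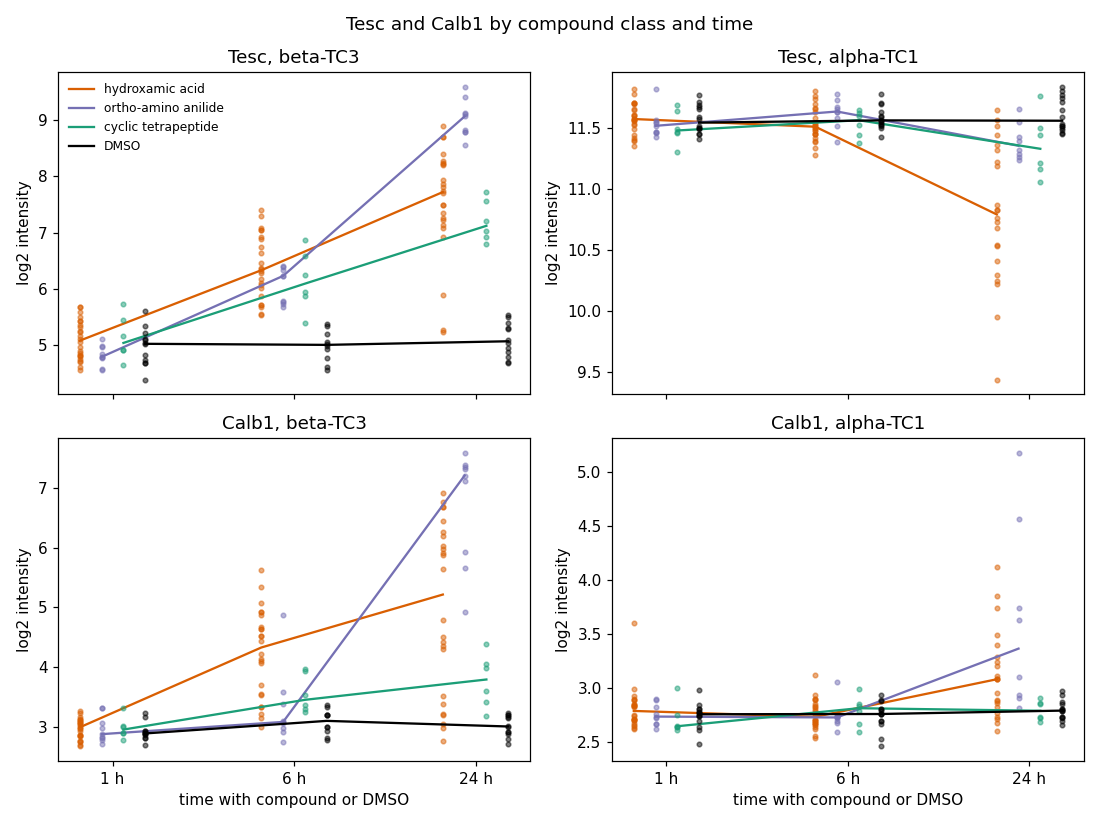
Log2 intensity of Tesc (top) and Calb1 (bottom) on each array by time (1, 6 and 24 h) in beta-TC3 (left) and alpha-TC1 (right), with lines through the median of each class and of DMSO and a different vertical scale in each panel. In beta-TC3 at 6 h the hydroxamic acids lie at a median Calb1 of 4.33 and the anilides at 3.09, and at 24 h at 5.22 and 7.20.

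Calb1 was higher than in DMSO in beta-TC3 at 24 h with the same 3 anilides and with 5 of the hydroxamic acids, by 1 of its 2 probe sets. CI-994 gave 7.39, 7.35 and 7.20, MS-275 gave 7.58, 5.93 and 7.32, and MGCD-0103 gave 4.92, 5.66 and 7.12, against a DMSO range of 2.72 to 3.23. All 9 arrays lay above DMSO, with MGCD-0103 spread over more than 2 log2 units. The changes were 4.26 ± 0.22 SE for CI-994, 3.86 ± 0.21 for MS-275 and 2.84 ± 0.22 for MGCD-0103.

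The hydroxamic acids split into those with high Calb1 and those near DMSO. ITF-2357 gave a change of 3.71 ± 0.24 SE (6.45, 6.68 and 6.92), CRA-024781 3.43, trichostatin A 3.12, PXD101 2.95 and pyroxamide 1.56. LBH-589 (0.59), SAHA (0.52) and scriptaid (-0.02) had arrays inside the DMSO range. All arrays of LBH-589 and SAHA lay above DMSO for Tesc, and not all did for Calb1. The class means were 3.65 ± 0.15 SE for the anilides, 1.98 ± 0.12 for the hydroxamic acids and 0.79 ± 0.17 for the cyclic tetrapeptides. The hydroxamic acids lay below the anilides (log2 difference -1.67 ± 0.14 SE). These SEs leave out the spread between compounds, which for the hydroxamic acids ran from -0.02 to 3.71.

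Among the other compounds, BRD9773 read 3.93, 4.58 and 4.81 for a Calb1 change of 1.48, BRD5298 gave 1.16, and chaetocin read 3.90, 4.36 and 4.17 for a change of 1.09 ± 0.22 SE. On the other Calb1 probe set the chaetocin change was -0.13. All arrays of 14 of the 29 compounds lay above DMSO for Calb1, where 5.24% of all groups did, and nothing is read from that count. In the order of levels 1 of 29 neighbouring pairs had separate ranges, MGCD-0103 above pyroxamide.

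In alpha-TC1 Calb1 was also higher with some of these compounds, and by less. MS-275 gave 3.63, 4.56 and 5.17 against a DMSO range of 2.66 to 2.97, a change of 1.60 ± 0.14 SE. Trichostatin A (0.82), CI-994 (0.63), ITF-2357 (0.59), CRA-024781 (0.58) and pyroxamide (0.51) also had every array above DMSO. MGCD-0103 read 2.94, 2.81 and 2.91, inside the DMSO range, so that the anilide class mean of 0.75 ± 0.10 SE was 0.33 without MS-275. The hydroxamic acid mean was 0.27 ± 0.072. The change in beta-TC3 exceeded that in alpha-TC1 by 2.94 ± 0.19 SE for the anilides and by 1.67 ± 0.15 for the hydroxamic acids. After subtraction of batch effects, all arrays of both lines lay on the same side of the DMSO mean for Calb1 with 8 of the 29 compounds, and on opposite sides with 1, SAHA, higher in beta-TC3. Over all genes and compounds these placements were held by 24.1% and 4.05%.

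By time, the classes parted for Calb1 at 6 h in beta-TC3. ITF-2357 already read 5.63, 5.34 and 4.67 (change 2.11 ± 0.19 SE) and CRA-024781 4.52, 4.87 and 4.92 (1.66), against a DMSO range of 2.78 to 3.38. MS-275 read 3.11, 3.58 and 2.92 and MGCD-0103 2.98, 2.74 and 3.06, and CI-994 had 1 array at 4.88 beside 3.38 and 3.09. The class changes at 6 h were 1.17 ± 0.11 SE for the hydroxamic acids, 0.59 ± 0.15 for the cyclic tetrapeptides and 0.24 ± 0.14 for the anilides. The hydroxamic acids thus lay 0.93 ± 0.13 SE above the anilides at 6 h and below them at 24 h. All arrays of 8 compounds lay above DMSO at 6 h in beta-TC3, where 7.12% of all groups did, and of none in alpha-TC1, where 6.4% did.

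The other Calb1 probe set did not show any of this. In beta-TC3 at 24 h it averaged 2.60 with anilides (range 2.47 to 2.75), 2.57 with hydroxamic acids (2.35 to 2.88) and 2.55 in DMSO (2.41 to 2.76), and over all 594 arrays it stayed between 2.27 and 2.99. The groups overlapped throughout. Every Calb1 value above comes from the first probe set alone, and which probe set tracks the transcript could not be settled from these arrays.

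**Figure D3:**
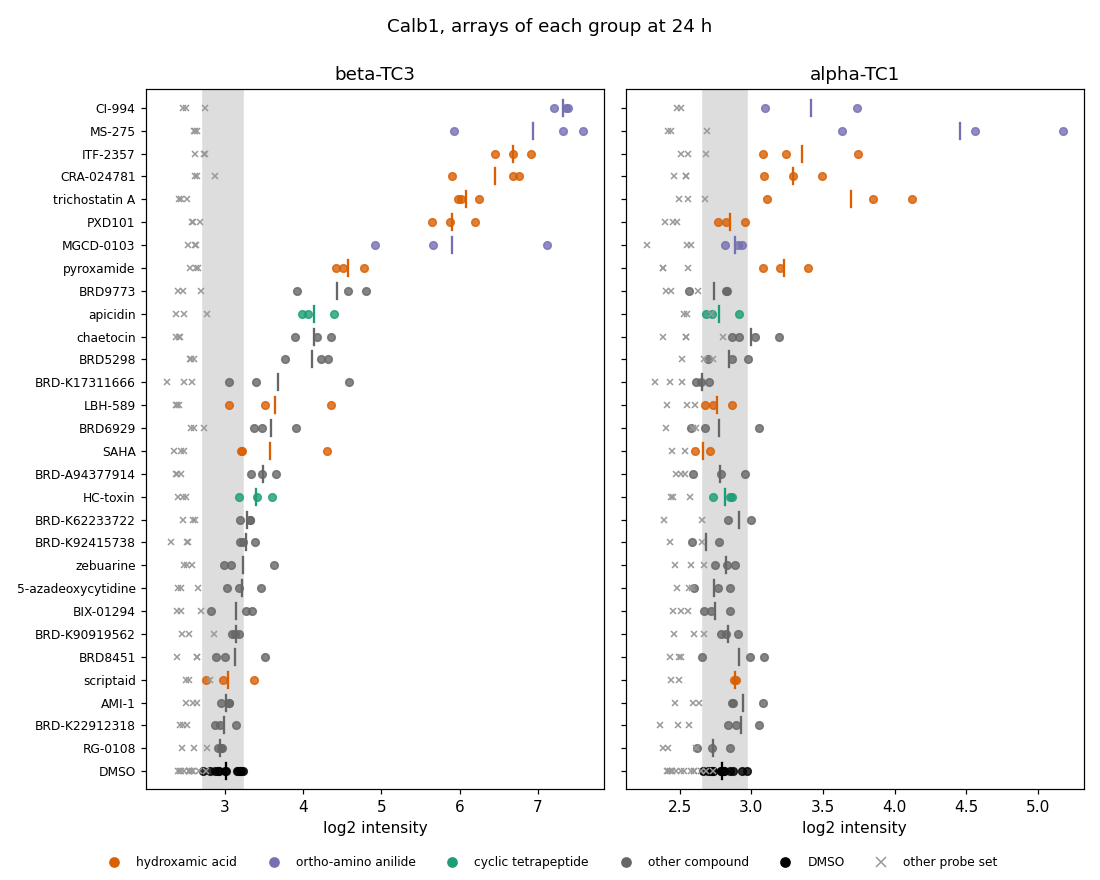
Log2 intensity of Calb1 at 24 h on each array (points, group mean as bar), in beta-TC3 on the left and alpha-TC1 on the right, which have different horizontal scales, with the other probe set as crosses and the DMSO range of the first as a grey band. CI-994 reads from 7.20 to 7.39 in beta-TC3 on the first probe set, whereas the crosses stay between 2.27 and 2.88 at 24 h in that line.

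S100a6 had another pattern. At 24 h it was higher with 5-azadeoxycytidine in both lines, reading 3.58, 3.68 and 4.55 in beta-TC3 against a DMSO range of 2.69 to 3.27, and 5.25, 4.53 and 3.99 in alpha-TC1 against 3.15 to 3.94. In each line these were the only groups of the 29 wholly above DMSO, and none lay wholly below, where 5.24% of all groups lay above and 4.29% below in beta-TC3, and 6.87% and 6.91% in alpha-TC1. Nothing is read from these counts. The changes were 0.88 ± 0.12 SE in beta-TC3 and 1.13 ± 0.16 in alpha-TC1. In the fit over both lines the change in beta-TC3 minus that in alpha-TC1 was -0.20 ± 0.19 SE, and it ran from -0.84 to 0.25 when 1 replicate at a time was left out. In beta-TC3 the change was 0.52 without replicate 3. Zebuarine and RG-0108 read 2.96 to 3.21 and 2.93 to 2.99 in beta-TC3, inside the DMSO range.

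Chaetocin gave S100a6 readings of 5.03, 4.40, 3.94 and 3.29 in alpha-TC1, 2 arrays above DMSO and 2 within it, with a change of 0.74 ± 0.15 SE that was 0.48 without replicate 1. In beta-TC3 the chaetocin change was 0.05. With deacetylase inhibitors the 24 h class changes of S100a6 in beta-TC3 were 0.23 for the anilides, 0.11 for the cyclic tetrapeptides and 0.04 for the hydroxamic acids, and in alpha-TC1 0.16, 0.03 and -0.12. When 1 replicate at a time was left out, the anilide change ran from 0.11 to 0.33 in beta-TC3 and from -0.019 to 0.27 in alpha-TC1. At 6 h 1 group, LBH-589 in beta-TC3 (highest array 2.83), lay wholly below DMSO, where 6.69% of all groups did. At 1 h 2 groups in alpha-TC1, scriptaid and MGCD-0103, lay wholly below DMSO, where 0.147% of all groups did and 0.149% lay above. In the order of levels at 24 h 5-azadeoxycytidine stood apart from its neighbour in beta-TC3, and no other neighbouring pair did in either line.

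**Figure D4:**
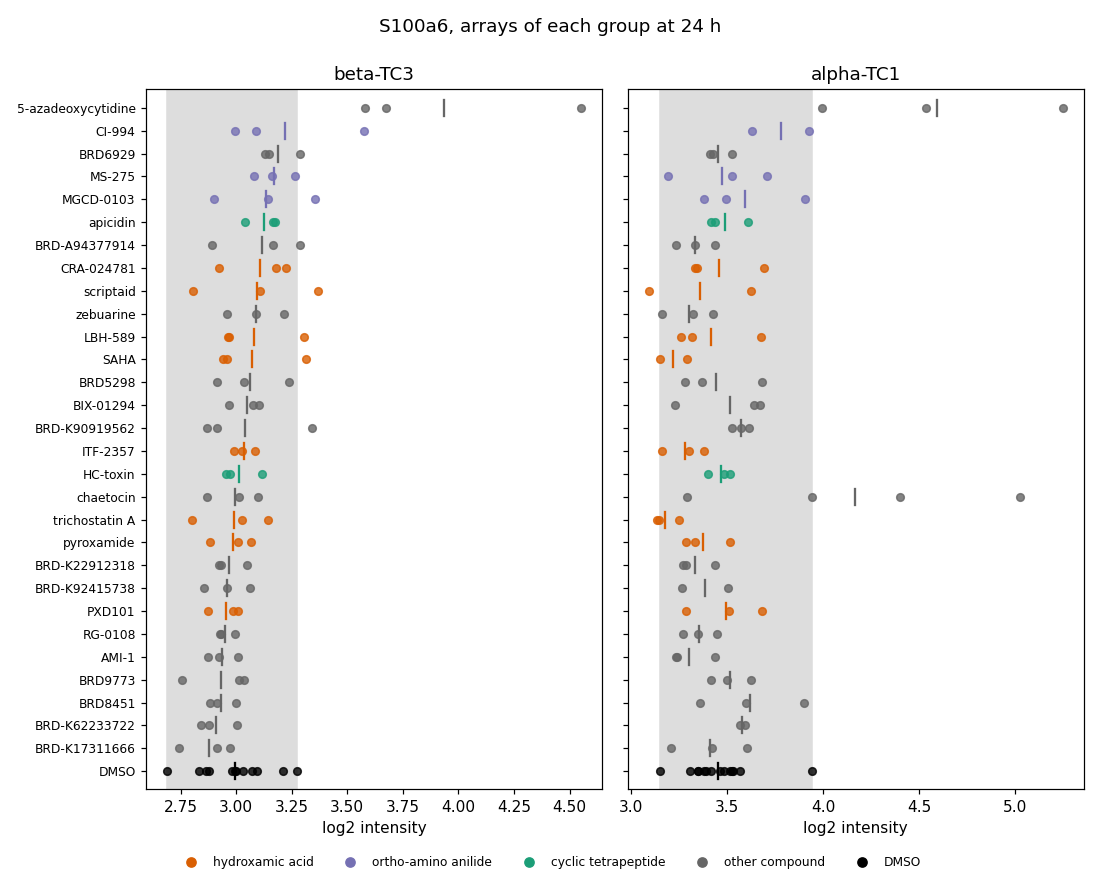
Log2 intensity of S100a6 at 24 h on each array (points, group mean as bar), in beta-TC3 on the left and alpha-TC1 on the right, which have different horizontal scales, with the DMSO range as a grey band. 5-azadeoxycytidine reads 3.58 to 4.55 in beta-TC3 and 3.99 to 5.25 in alpha-TC1, above the DMSO range in each.

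The sample labels named 7 batches without saying what was done in batches. The Tesc and Calb1 class changes given next kept their direction within each batch that held both groups. Batches did not all hold the same compounds of a class, so the ranges mix compounds with batches. Some batches held 1 array of a group. The hydroxamic acid values of -2.35 and -0.12 for Tesc in alpha-TC1 each rest on 1 compound array, as does each batch value for 5-azadeoxycytidine. Within batches the Tesc change in beta-TC3 at 24 h ran from 3.40 to 4.49 for the anilides (4 batches) and from 1.92 to 2.88 for the hydroxamic acids (7 batches), and in alpha-TC1 from -2.35 to -0.12 for the hydroxamic acids. For Calb1 in beta-TC3 it ran from 2.73 to 4.39 for the anilides and from 0.86 to 3.00 for the hydroxamic acids. The S100a6 change with 5-azadeoxycytidine ran from 0.43 to 1.48 in beta-TC3 and from 0.47 to 1.81 in alpha-TC1, over 3 batches each, and its change with chaetocin in alpha-TC1 from -0.09 to 1.61.

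Alpha cell markers are given beside the higher Tesc in beta-TC3. Of 7 listed alpha cell markers 5 were measured, and their mean log2 level ran from 6.47 to 7.02 over the anilide arrays and from 5.88 to 6.96 over the DMSO arrays. Irx1 averaged 3.09 with anilides and 3.08 in DMSO, and Pou3f4, another alpha cell transcription factor, 2.83 and 2.88, both below the 25th percentile of all gene values. Irx2 averaged 5.25 with anilides and 5.05 in DMSO, and Gcg 9.56 with anilides and 8.79 in DMSO. Ttr, the highest reading of the list in beta-TC3, averaged 12.95 with anilides, 12.81 with hydroxamic acids and 12.87 in DMSO. In alpha-TC1 Ttr averaged less, 11.40 in DMSO. With hydroxamic acids, under which Tesc was also higher, the list ran from 5.85 to 6.89, Irx2 averaged 4.63 and Gcg 8.52, both below their DMSO means. Beta cell markers, 6 measured of 9 listed, ran from 8.33 to 8.78 with anilides, from 7.14 to 9.05 with hydroxamic acids and from 8.65 to 9.17 in DMSO, so that the ranges overlapped. Within that list Ins2 averaged 13.28 with anilides and 13.20 in DMSO, and Pdx1 8.39 and 9.20. In alpha-TC1, where Tesc was lower, alpha cell markers ran from 7.74 to 9.65 with hydroxamic acids, from 8.81 to 9.01 with chaetocin and from 8.98 to 9.48 in DMSO. The part of these markers in the Tesc results was not tested. In beta-TC3 markers of acinar, duct, stromal, endothelial and immune cells lay from 3.20 to 3.33 with anilides and from 3.11 to 3.33 in DMSO.

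Beside the S100a6 result, alpha cell markers in beta-TC3 ran from 6.74 to 7.09 with 5-azadeoxycytidine and from 5.88 to 6.96 in DMSO, and acinar, duct, stromal, endothelial and immune cell markers, of which 10 of 12 were measured, from 3.18 to 3.26 and from 3.11 to 3.33. In alpha-TC1 with chaetocin this second list ran from 4.023 to 4.26, barely above the DMSO range of 3.81 to 4.015. Its genes did not move together. Cd68 averaged 5.12 against 3.86 in DMSO and Pecam1 4.20 against 2.89, whereas Cela1 averaged 5.00 against 6.05 and Krt7 7.12 against 7.31. The part of this list in the S100a6 readings there was not tested.

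The genes whose group means most resembled those of each member over the 30 groups at 24 h were sought by Pearson's r, as a description, since all groups share batches and the DMSO control. In beta-TC3 Tesc was most like Rgs5, a regulator of G protein signalling (r = 0.95), Rhd (0.94) and Tpd52l1 (0.937). Calb1 was most like Mospd1 (0.98), Card10 (0.967) and the junctional adhesion molecule gene F11r (0.963). S100a6 was most like Tex19.1, a germline gene (0.771), Socs3 (0.725) and Gpx2 (0.715). In alpha-TC1 the likest genes were others: 0610040J01Rik (0.966), Ank3 (0.961) and Selenon (0.953) for Tesc, Fn1 (0.856), Arhgap24 (0.825) and Kctd12 (0.817) for Calb1, and Rad9a (0.835), Dleu2 (0.801) and Tuba3a (0.793) for S100a6. Between the members, r of Tesc with Calb1 was 0.786 in beta-TC3 and -0.284 in alpha-TC1 over the 30 groups.

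Other genes of calcium binding were tested with limma, from 6 lists of 102 genes of which 80 were measured. Of these, with anilides at 24 h, 27 rose and 19 fell in beta-TC3, and 29 rose and 13 fell in alpha-TC1, where 22% of all genes rose and 21.7% fell in beta-TC3 and 21.2% rose and 22.5% fell in alpha-TC1. With hydroxamic acids 22 rose and 23 fell in beta-TC3 (22.5% and 20.7% of all genes), and 24 rose and 19 fell in alpha-TC1 (26.1% and 24.3%). Comparisons of both classes in a line share DMSO arrays.

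Of 13 measured S100 genes, 3 rose and 1 fell with anilides in beta-TC3 and 4 rose and 0 fell in alpha-TC1. Over all genes 22% rose and 21.7% fell in beta-TC3, and 21.2% rose and 22.5% fell in alpha-TC1. The list medians were 0.03 in both lines against -0.02 and -0.01 over all genes. S100a4, whose protein binds non-muscle myosin, fell with anilides in beta-TC3 (-0.36 ± 0.093 SE, adjusted p = 0.000918) and rose in alpha-TC1 (1.45 ± 0.12, adjusted p = 1.83e-16). With hydroxamic acids S100a4 fell in both, by 1.23 in beta-TC3 and by 0.56 in alpha-TC1. S100a10, the annexin A2 partner, rose with anilides by 1.79 in alpha-TC1 and 0.36 in beta-TC3, and S100a11 rose by 1.42 in beta-TC3 and 0.55 in alpha-TC1. S100a13, a copper- and calcium-binding S100 gene, rose in all 4 comparisons, by 0.20 with anilides and 0.54 with hydroxamic acids in beta-TC3 and by 0.88 and 1.06 in alpha-TC1. S100a1 fell by 0.35 with hydroxamic acids in beta-TC3.

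Among 15 measured calcineurin B-like genes and neuronal calcium sensors, the relatives of Tesc, 8 rose and 1 fell with anilides in beta-TC3. In alpha-TC1 8 rose and 2 fell. The shares over all genes were 22% and 21.7% in beta-TC3 and 21.2% and 22.5% in alpha-TC1. The list medians were 0.21 and 0.32, against -0.02 and -0.01 over all genes. With hydroxamic acids 6 rose and 3 fell in beta-TC3 (22.5% and 20.7% of all genes). In alpha-TC1 6 rose and 5 fell (26.1% and 24.3%), and the list medians were 0.05 and 0.01. Chp1, another calcineurin B homologous protein gene, rose with hydroxamic acids by 0.96 ± 0.096 SE in beta-TC3 (adjusted p = 5.09e-14) and by 0.91 in alpha-TC1, and with anilides by 0.53 in each line. Cib1, a calcium- and integrin-binding protein gene, rose by 1.06 to 1.30 in all 4 comparisons. Vsnl1, the visinin-like neuronal sensor gene, rose in beta-TC3 with anilides (1.54 ± 0.12 SE, adjusted p = 7.4e-18), and Kcnip3, which encodes a potassium channel-interacting calcium sensor, fell in alpha-TC1 with hydroxamic acids (-1.33 ± 0.086, adjusted p = 2.64e-22). Hpcal1, a hippocalcin-like sensor gene, rose in alpha-TC1 by 0.85 with anilides and 1.12 with hydroxamic acids, and in beta-TC3 by 0.56 with anilides. Ncald, the neurocalcin gene, rose in alpha-TC1 by 0.90 with anilides and 1.02 with hydroxamic acids. In beta-TC3 Guca1a, a guanylate cyclase activator gene, rose by 0.78 with anilides, and Kcnip1 fell by 0.84 with hydroxamic acids.

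Among 16 measured relatives of calbindin and calmodulin, 3 rose and 4 fell with anilides in beta-TC3 and 5 rose and 3 fell in alpha-TC1. The shares over all genes were 22% and 21.7% in beta-TC3 and 21.2% and 22.5% in alpha-TC1. Scgn, which encodes the islet calcium sensor secretagogin, fell in beta-TC3 with hydroxamic acids (-1.03 ± 0.095 SE, adjusted p = 2.7e-15) and anilides (-0.45) and rose in alpha-TC1 with both (0.79 and 1.90), where the Tesc readings were higher in beta-TC3 and lower in alpha-TC1. The difference of the Scgn changes between the lines was not tested. Calml4, a calmodulin-like gene, fell by 1.49 with hydroxamic acids in beta-TC3, and Efhd1, which encodes a mitochondrial EF-hand protein, rose there by 1.69 with anilides and 0.85 with hydroxamic acids. The centrin gene Cetn3 fell with anilides by 0.77 in beta-TC3 and by 0.90 in alpha-TC1, and with hydroxamic acids in alpha-TC1 by 0.87. Cetn2, another centrin gene, fell in alpha-TC1 by 0.82 with anilides and rose by 0.51 with hydroxamic acids, and Cabp1 rose by 0.57 with anilides in beta-TC3. Pvalb, the parvalbumin buffer gene, rose in all 4 comparisons, by 0.49 to 1.64, and Calb2, the calretinin gene, lay between -0.06 and 0.09 in them without passing the test.

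Of the 8 measured partners of the members, 4 rose and 3 fell with anilides in beta-TC3 and 3 rose and 3 fell in alpha-TC1. The shares over all genes were 22% and 21.7% in beta-TC3 and 21.2% and 22.5% in alpha-TC1. Anxa2, an annexin gene, rose with anilides by 1.72 ± 0.083 SE in beta-TC3 (adjusted p = 4.59e-29) and by 1.54 in alpha-TC1, and Anxa6, another annexin gene, rose by 1.08 and 1.71. Of the calcineurin catalytic subunits, Ppp3cb fell (by 0.87 in beta-TC3 and by 0.83 in alpha-TC1 with anilides) and Ppp3ca rose (0.84 and 0.55). Ppp3cc, the other subunit listed, had a change of -0.36 with anilides in beta-TC3 (limma adjusted p = 0.00518). Cacybp, which encodes the S100a6 partner, fell with anilides by 0.16 in beta-TC3 (limma adjusted p = 0.0247) and by 0.35 in alpha-TC1 (adjusted p = 0.000191).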

How the data were processed

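The authors deposited linear intensities of 22716 probe sets on 594 arrays, the output of RMA, per the submitters' processing notes. Its version, and whether values were scaled again, are not given in the sources used here. Values ran from 3.962 to 13635 and were taken to log2 here, since the design had assumed values already on a log scale. All 594 columns were matched to a sample by name. Probe sets with several gene symbols (287) or none (4426) were left out. For each of the 11807 genes, 4150 of which had several probe sets, the probe set with the highest mean was used. The Tesc probe set used carries a suffix that marks possible cross-matching to related transcripts.

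Groups were taken from the sample labels. A separate model was fitted to each line and time with limma 3.58.1 in R 4.3.3 (lmFit and eBayes), over all genes and compounds, with the labelled batch (7 batches, numbered 4 to 10) as a fixed term. Differences between lines came from a fit over both lines. Class changes are equal-weight means over compounds, and their SE holds the spread between arrays and not that between compounds. P-values were adjusted over all genes by the Benjamini-Hochberg method, with a threshold of 0.05. SE is limma's moderated standard error. Tables were read with data.table (version 1.17.8) and pandas 2.3.3 (Python 3.11.15), and figures were drawn with matplotlib 3.10.9. The fits were tested on simulated data without batch effects or deviations shared between arrays, so that test does not cover the batches of these arrays.

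The genes and lists were chosen with earlier results of these data known. Named genes were the 3 members, the 3 genes with the highest Pearson r to each member in each line over the 30 group means at 24 h, and from each family list up to 4 called genes with the largest absolute change per class and line. Calb2, Cacybp and Ppp3cc, and the lesser changes given for a named gene in other comparisons, were added for completeness after their values were seen. Same-numbered replicates of different compounds did not deviate together (mean r 0.02 in beta-TC3 and 0.021 in alpha-TC1), so the numbers do not pair arrays, whereas arrays of 1 batch had a mean r of 0.239 and 0.168. Alternatives were no batch term, another normalization, other probe sets, a filter on low genes, only the arrays compared, a replicate block, and leaving out compounds or replicates.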

Additional observations from a re-analysis of the deposited data

Results flagged for a closer look

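For Tesc at 24 h, 19 compounds had every batch-adjusted beta-TC3 array above and every alpha-TC1 array below the DMSO mean, and the values below are the log2 change in beta-TC3 minus that in alpha-TC1. The difference was not tested, since the genes were selected on these changes. Among hydroxamic acids it was 4.76 for ITF-2357, 4.27 for trichostatin A, 3.99 for CRA-024781, 3.65 for pyroxamide, 3.16 for PXD101, 2.51 for SAHA and 0.49 for scriptaid. Among anilides it was 4.54 for CI-994, 3.92 for MGCD-0103 and 3.91 for MS-275, and it was 2.70 for apicidin. Among code-named compounds it was 2.82 for BRD5298, 2.40 for BRD-A94377914, 2.27 for BRD-K17311666, 2.10 for BRD6929, 2.03 for BRD9773, 1.44 for BRD-K90919562, 1.32 for BRD8451 and 1.27 for BRD-K22912318. For Calb1 the same placement was seen with SAHA alone, where the difference was 0.65 and was not tested either. Arrays far from the rest of their group were sought only in groups of 4 to 10 arrays, in 6 checks of a member in a group, and none was found. Groups of 2 or 3 arrays, which are nearly all compound groups, and DMSO groups of 12 or 14 were not checked.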

How the results depend on the processing

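The Calb1 results depend on the probe set. With the other Calb1 probe set (chosen after seeing the data) the signs turned for MS-275 in alpha-TC1 (-0.017), the anilides (-0.025) and hydroxamic acids (-0.037) in alpha-TC1, the tetrapeptides (-0.058) and chaetocin (-0.13) in beta-TC3, and DMSO between lines at 6 h (-0.045). There the DMSO difference at 1 h was 0.058 and no longer passed, the beta-TC3 changes were 0.0505 for anilides and 0.014 for hydroxamic acids, hydroxamic acids minus anilides was -0.037 in beta-TC3 and -0.0125 in alpha-TC1, and the differences between lines were 0.089 for anilides and 0.048 for hydroxamic acids. With the mean of both probe sets the Calb1 changes were 1.85 for anilides and 1.00 for hydroxamic acids in beta-TC3 and 0.36 for anilides in alpha-TC1, the class differences -0.85 and -0.25, and the differences between lines 1.51 and 0.86. With the other Tesc probe set the changes were 3.49 for anilides and 1.95 for hydroxamic acids in beta-TC3 and -1.12 for hydroxamic acids in alpha-TC1, with a class difference of -0.83 in alpha-TC1. Fitting only the arrays compared gave a Calb1 DMSO difference at 24 h of 0.22, which then passed, and a class difference in alpha-TC1 of -0.19. Without MGCD-0103 the Calb1 anilide change was 4.06 in beta-TC3 and 1.11 in alpha-TC1, with class differences of -2.07 and -0.84. Without MS-275 the alpha-TC1 values were 0.33 and -0.057. Leaving out 1 replicate at a time gave 0.62 to 1.05 for the Calb1 anilide change in alpha-TC1, -0.74 to -0.38 for its class difference there and 2.69 to 3.29 for its difference between lines. It gave 0.52 to 1.08 in beta-TC3 and 0.80 to 1.45 in alpha-TC1 for S100a6 with 5-azadeoxycytidine, and -0.84 to 0.25 for the difference between lines. Leaving out genes below the median level drops Calb1 and S100a6, and by its construction lowers counts: listed genes that rose were 12 (hydroxamic acids) and 15 (anilides) in beta-TC3 and 19 (anilides) in alpha-TC1, those that fell with hydroxamic acids 14 in beta-TC3 and 11 in alpha-TC1, and all genes that rose with anilides in beta-TC3 1702 against 2598. Apart from these constructions the cause was not tested. With a replicate block, hydroxamic acids minus anilides was -1.72 in beta-TC3 and -0.64 in alpha-TC1 for Tesc, -1.63 and -0.43 for Calb1, and -0.16 and -0.24 for S100a6. No paired analysis was possible against DMSO because the DMSO arrays carry no replicate number shared with the compounds. Of 814 alternative values, 573 for the main results stayed as reported. Among values for cyclic tetrapeptides and single compounds, without S100a6 under 5-azadeoxycytidine, 162 did. Staying meant within 1 replicate SD of the reported value, on the same side of the test or, for counts, within a set factor. Of the main results 39 moved, 3 turned in sign, 1 newly passed its test and 1 no longer passed. Of the others 32 moved and 3 turned in sign. A turn in sign was counted only where limma's adjusted p was under 0.05. Other sign changes are among the values that stayed or moved, such as the S100a6 difference between lines with 5-azadeoxycytidine (-0.84 to 0.25).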

Other observations

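A pair of calcium gene lists is not described above. Among 13 measured penta-EF-hand and reticular calcium-binding genes, 5 rose and 5 fell with anilides in beta-TC3 and 4 rose and 4 fell in alpha-TC1 by limma's test, with list medians of -0.03 and 0.08 against -0.02 and -0.01 over all genes. Of all genes 22% rose and 21.7% fell with anilides in beta-TC3, and 21.2% rose and 22.5% fell in alpha-TC1. Gca, which encodes the penta-EF-hand protein grancalcin, averaged 5.60 with anilides and 5.43 with hydroxamic acids in alpha-TC1, against 3.27 in DMSO, with changes of 2.54 ± 0.21 SE (limma adjusted p = 1.66e-17) and 2.17 ± 0.15 (adjusted p = 2.76e-21). In beta-TC3 Gca rose by 0.56 and 0.64. Calu, the calumenin gene of the secretory pathway, rose with anilides by 0.92 in beta-TC3 and 1.15 in alpha-TC1, and Rcn3, a reticulocalbin gene, rose by 1.12 in beta-TC3 (limma adjusted p = 3.88e-11) and was at 0.10 in alpha-TC1 without passing. Capn2, a calpain gene, fell with hydroxamic acids by 0.54 in beta-TC3 and by 0.83 in alpha-TC1, and Pdcd6 fell with anilides by 0.45 and by 0.70. Sdf4 fell by 0.32 with hydroxamic acids in beta-TC3, and in alpha-TC1 Sri, the sorcin gene, rose by 0.53 with hydroxamic acids and Rcn2 by 0.58 with anilides.

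Among 15 measured calcium pumps, exchangers and channels, 4 rose and 5 fell with anilides in beta-TC3 and 5 rose and 1 fell in alpha-TC1, to be read against the same shares of all genes. Cacna1c, which encodes an L-type calcium channel subunit, fell in all 4 comparisons. It averaged 3.87 with anilides and 4.14 with hydroxamic acids in beta-TC3, against 5.31 in DMSO, and 3.51 and 3.63 in alpha-TC1, against 4.97 in DMSO. The changes lay between -1.46 and -1.16. Cacna1d, another L-type subunit gene, fell in beta-TC3 by 0.85 with anilides and by 0.81 with hydroxamic acids. Stim1, the sensor of calcium stores, rose in all 4 comparisons, by 0.45 to 0.63. In beta-TC3 the exchanger gene Slc8a1 fell by 0.82 and the IP3 receptor gene Itpr3 rose by 0.48 with hydroxamic acids, and the pump gene Atp2a3 rose by 0.55 with anilides. In alpha-TC1 the pump gene Atp2a2 fell by 0.69 with hydroxamic acids, the mitochondrial exchanger gene Slc8b1 rose by 0.58 with anilides, and Orai1, a calcium channel gene, rose by 0.57 with anilides and 0.72 with hydroxamic acids.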
